A study of Mus musculus with 36 samples.

Results

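A set of 40 nuclear genes that encode subunits of respiratory complexes III, IV and V and cytochrome c were followed through 3 organs of late adolescent mice. The list of 40 genes was taken by symbol, and all 40 were found among the 78239 gene identifiers of the count tables. It holds 9 subunits of complex III, 15 of complex IV, 15 of complex V and somatic cytochrome c (Cycs). The 36 libraries came from heart, kidney and liver of male wild-type C57BL/6NCrl mice aged 8, 10 or 12 weeks, 4 for each of 9 combinations of organ and age. The labels name no treatment and no allele besides wild type, and the mice were bought from 1 supplier and fed the same chow. The study's methods call the libraries of a group biological replicates, and heart, kidney and liver were taken from the mice, but the labels do not tie libraries of different organs to the same animal.

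Complex III passes electrons from ubiquinol to cytochrome c, and complex IV (cytochrome c oxidase) passes them on to oxygen. Both pump protons across the inner mitochondrial membrane, and complex V (ATP synthase) uses the gradient to make ATP. A few catalytic subunits come from mitochondrial DNA, while the genes described here lie in the nucleus, and several of them have a second copy that is used mainly in heart and skeletal muscle.

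Depth lay between 21031599 and 33637390 counted read pairs per library. Levels are given as CPM, that is counts relative to library size after scaling with edgeR's TMM factors over the 36 libraries. Marker genes went with the labels: the 6 heart muscle markers summed to 51587 to 68941 CPM in heart and to at most 1.54 CPM elsewhere, the 6 kidney tubule markers to at least 8741 CPM in kidney and at most 2.99 CPM elsewhere, and the 6 liver cell markers to at least 97686 CPM in liver, at most 2034 CPM in kidney and at most 26.4 CPM in heart. Tissue was bulk, so fewer cells of a type and less RNA per cell cannot be told apart.

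How a read pair was counted decided the level of 14 of the 40 genes. The count without regard to strand leaves out a pair that also overlaps an exon of a gene on the other strand, whereas the 2 columns counted by strand keep it. For 25 members the unstranded count was at least 99% of the strand columns summed. For 14 it was under 90%, and for 7 it was under 50%. Cox7a1, the muscle isoform of subunit 7a, kept 1.92% of its pairs, Cox4i1, the common isoform of subunit 4, 4.64%, and Uqcr10, a small complex III subunit, 8.86%. Atp5mg kept 21.2%, Atp5f1b, the catalytic beta subunit of ATP synthase, 22.2%, Uqcrh 26.6% and Cox5a 35.0%.

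For most of these genes about as many pairs appeared on the gene opposite. In heart, Cox7a1 (chromosome 7, 29883569 to 29885503, plus strand, GRCm39) had a mean of 210 pairs unstranded and 11090 in the strand columns, and the noncoding gene Gm53356 across from it had 1.2 unstranded and 10943 in the strand columns. Atp5f1b (chromosome 10, 127919132 to 127926261) lost 106969 pairs per heart library, and Gm47438 opposite it held 111877 more pairs by strand than without. For Cox4i1 (chromosome 8, 121391505 to 121400950) the neighbouring protein-coding gene Emc8 held only 5195 of the 30026 pairs that differed, and for Atp5po the gene opposite, D430001F17Rik, gained 4790 against 462. The strands took nearly equal shares in every library (49.8% to 50.2% on the first), so the strand of origin of a pair was not recorded. A strand-summed count includes any RNA of the opposite gene. Values below are unstranded unless the strand columns are named, and a member's call that turned on the counting is given on both scales.

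**Figure D1:**
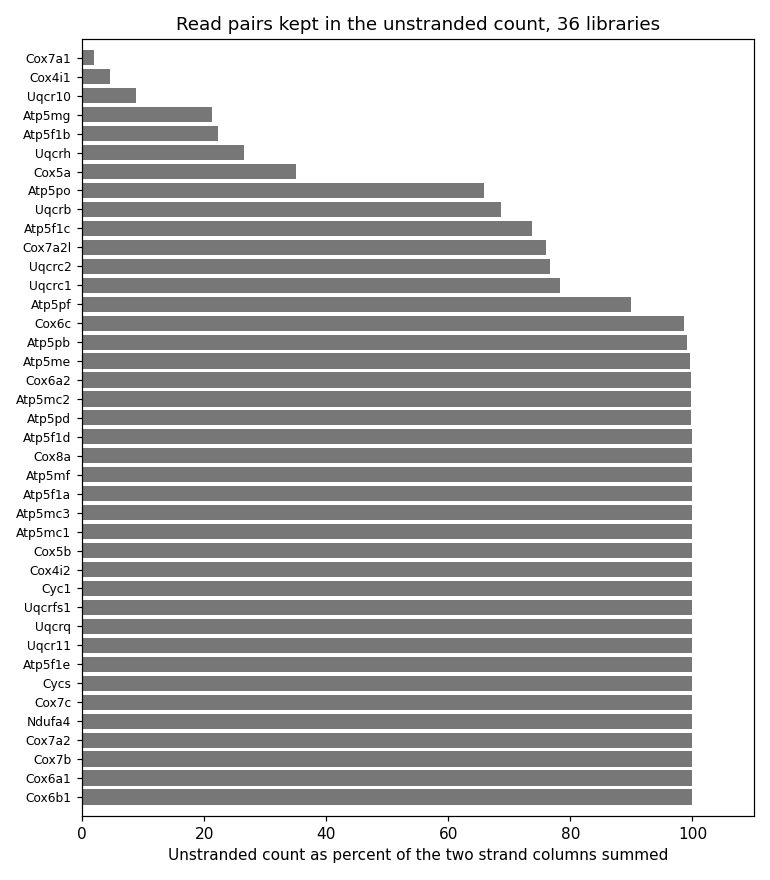
Bars give the unstranded count as a percent of the strand columns summed (horizontal axis, starting at 0) for each of the 40 members over 36 libraries. Cox7a1, Cox4i1 and Uqcr10 stand at 1.92%, 4.64% and 8.86%, while 25 members stand at 99% or more.

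Nearly all members were most abundant in heart. Against kidney, 37 of 40 members were higher in heart and 2 were lower at an adjusted p under 0.05 and a log2 fold change beyond 1 (edgeR's quasi-likelihood test), where 52.6% of all 19716 genes tested passed and 21.9% were higher. Against liver, 33 were higher and 2 lower, where 55.3% of all genes passed and 28.7% were higher. The median log2 difference of the members was 1.77 against kidney and 1.67 against liver, beside -0.15 and -0.00 over all genes. Scaling by total counts alone moved the median of all genes in heart against kidney to -0.67 and left 27 members higher by over 1, but the members' median relative to all genes was 1.92 with TMM and 1.91 without.

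The difference ran through all 3 complexes. Against kidney all 9 complex III subunits and all 15 complex V subunits passed as higher in heart, with median log2 differences of 1.65 and 1.75, and in complex IV 12 passed as higher and 2 as lower. Against liver 8 of 9, 11 of 15 and 13 of 15 passed as higher. The strand-summed levels of the complex III subunits added up to 6187 ± 353 CPM in heart, 1836 ± 58.3 CPM in kidney and 2052 ± 192 CPM in liver (SD, n = 12). For complex V the sums were 18808 ± 966, 6435 ± 248 and 5541 ± 476 CPM.

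Cox6a1 and Cox8a were the 2 members lower in heart. Cox6a1, the ubiquitous isoform of subunit 6a, lay between 55.7 and 88.8 CPM in heart (median 75.3), between 261 and 324 CPM in kidney (median 304) and between 284 and 392 CPM in liver (median 321). No heart library reached the lowest library of another organ, and the log2 difference was -2.02 ± 0.06 from kidney and -2.14 ± 0.06 from liver (SE). Cox8a, the ubiquitous isoform of subunit 8, differed by -1.38 ± 0.06 and -1.07 ± 0.06. With total counts in place of TMM, 2 members still passed as lower than kidney and 1 as lower than liver. Next lowest against kidney was Cox7a2, the common partner of Cox7a1, at 0.55 ± 0.06, and against liver Uqcrq, a small complex III subunit, at 0.77 ± 0.05.

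Cox6a2, Cox7a1 and Cox4i2 were the 3 members furthest above kidney and liver in heart. Cox6a2, the muscle isoform of subunit 6a, ran from 995 to 1416 CPM in heart (median 1274), from 0.378 to 1.24 CPM in kidney and from 0 to 0.151 CPM in liver. In liver these are 0 to 3 counts per library, so that the fitted difference of 14.56 depends on the small count added by the fit. Cox7a1 was at 4.72 to 11.8 CPM in heart without strand and at a mean of 462 ± 75.2 CPM with the strand columns summed, and its kidney and liver means on the latter scale were 5.18 ± 0.72 and 0.96 ± 0.37 CPM (SD, n = 12). Cox4i2, a subunit 4 isoform known from lung and from low oxygen, ran from 4.86 to 8.84 CPM in heart, with medians of 0.401 CPM in kidney and 0.0939 CPM in liver.

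**Figure D2:**
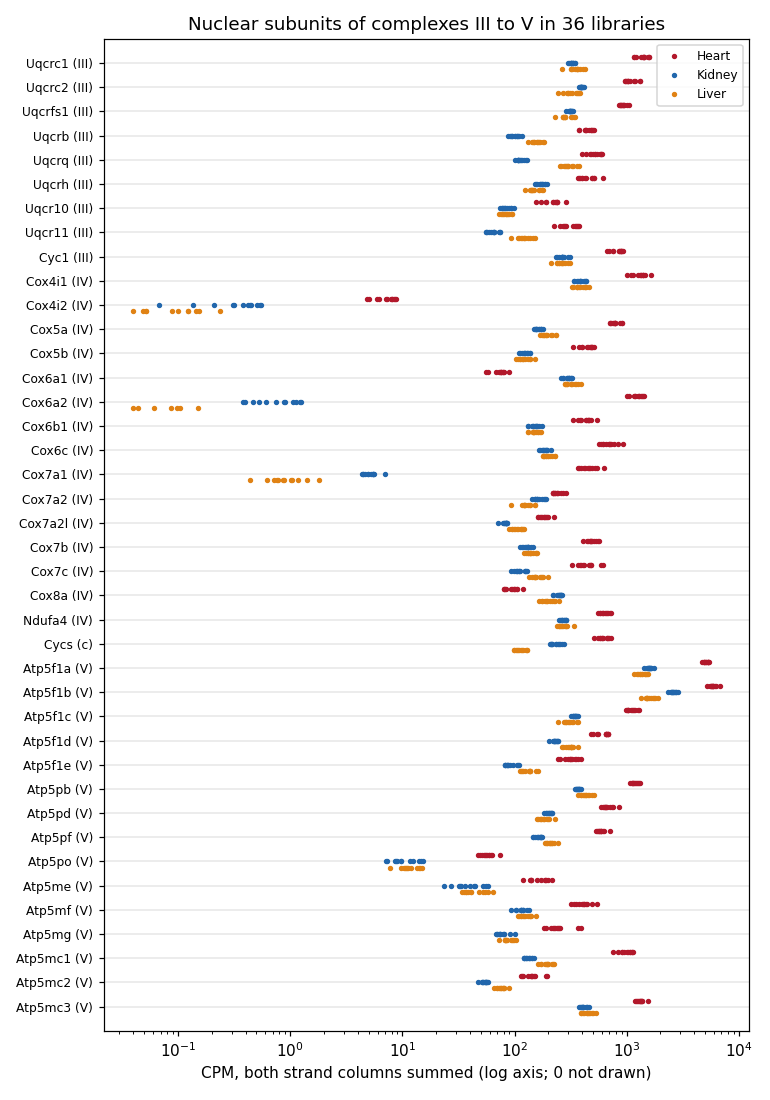
Each point is 1 library's level of a member (horizontal log axis, CPM with both strand columns summed), with 12 libraries each of heart, kidney and liver. The complex is in brackets and values of 0 are not drawn. Cox6a1 and Cox8a are the members whose heart points lie to the left, and Cox6a2 lies between 998 and 1419 CPM in heart against at most 1.24 CPM in kidney.

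Kidney and liver were closer to each other, and the direction there hung on the scaling. With TMM 16 of 40 members were higher in kidney (19 with the strand columns summed), and with total counts 38 were, while the median relative to all genes was -0.27 and -0.25. In all 5 members passed, where 47.8% of all genes did. Cox6a2, Cox7a1 and Cox4i2 stood highest, at log2 differences of 3.86 ± 0.34, 2.26 ± 0.43 (2.48 ± 0.13 with the strand columns summed) and 1.87 ± 0.33. These 3 had at most 3, 2 and 5 counts per library in liver, and Cox7a1 had 3 to 11 in kidney, so that the sizes of their differences rest on few pairs. Cycs, the electron carrier between complexes III and IV, was higher by 1.05 ± 0.06. Uqcrq was lower in kidney by a log2 difference of -1.42 ± 0.06, followed by Uqcr11 at -0.94 ± 0.07 and Uqcrb at -0.75 ± 0.05. Uqcrq lay between 102 and 130 CPM in kidney and between 255 and 379 CPM in liver, without overlap. With total counts 9 members passed, where 11465 of 19716 genes did, and all 9 were higher in kidney. Uqcrq thus no longer passed as lower.

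Isoform pairs divided the organs. Counts were divided by the length of the canonical transcript to compare the copies. Cox6a2 made up 93.4% ± 0.56 of the 6a pair in heart, 0.213% ± 0.080 in kidney and 0.0131% ± 0.014 in liver (SD, n = 12). For the 7a pair the answer turned with the counting: Cox7a1 was 6.29% ± 1.32 of Cox7a1 and Cox7a2 in heart by the unstranded count and 77.7% ± 2.57 with the strand columns summed. For the subunit 4 pair, Cox4i2 was 10.8% ± 1.95 in heart unstranded but 0.560% ± 0.074 with the strand columns summed. In heart Cox7a2 and Cox4i2 kept 100% of their pairs, while Cox7a1 kept 1.89% and Cox4i1 4.75%. The unstranded shares of these pairs thus set a remnant of 1 copy against all pairs of the other. Cox4i1 had strand-summed means of 1316 ± 173, 389 ± 33.1 and 387 ± 43.4 CPM in heart, kidney and liver, and Cox7a2 ranged over 219 to 289, 144 to 191 and 93.3 to 152 CPM.

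The 3 genes of the c-ring, Atp5mc1, Atp5mc2 and Atp5mc3, encode the same mature protein with different import sequences. Atp5mc1 ran from 762 to 1130 CPM in heart (median 1025), from 120 to 148 CPM in kidney (median 132) and from 162 to 223 CPM in liver (median 194). Per length, it held 51.4% ± 2.76 of the 3 genes in heart, against 30.5% ± 0.66 in kidney and 36.1% ± 2.16 in liver, and heart did not overlap the other organs. Atp5mc3 held the largest share in kidney (59.1% ± 0.99) and liver (52.0% ± 2.06), and Atp5mc2 at most 12.4% in any library. In CPM, Atp5mc3 ranged over 1195 to 1566 in heart, 378 to 458 in kidney and 391 to 530 in liver, and Atp5mc2 over 114 to 196, 47 to 58 and 65.3 to 89.9. Stretches of at least 99% identity elsewhere in the genome cover 85.8% of the Atp5mc1 transcript and 89.2% of that of Atp5mc2, so pairs that map to several places may be missing from these counts. The same limit holds for other members, with 74.1% of the transcript covered for Cox7c, 65.1% for Atp5mg, 55.6% for Cox5b, 39.5% for Cycs and 4.97% for Atp5pf.

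**Figure D3:**
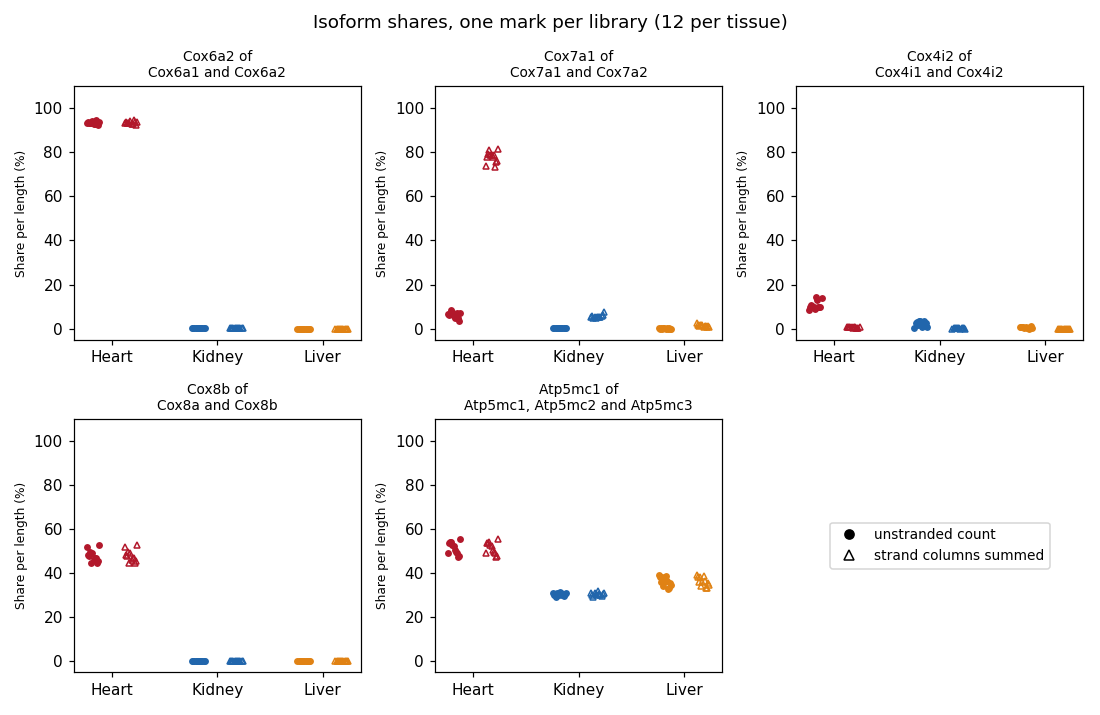
Each mark is 1 library's isoform share per transcript length (vertical axis, percent), by organ, with filled circles for the unstranded count and open triangles for the strand columns summed. In heart, the share of Cox7a1 moves from a mean of 6.29% to 77.7% with the counting, while that of Cox6a2 stays at 93.4%.

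Of the isoforms outside the 40, Cox8b, the muscle copy of subunit 8, had a median of 333 CPM in heart. In kidney it ranged from 0 to 1.73 CPM and was highest in the second 8-week library, where the 6 brown fat markers, Ucp1 among them, summed to 35.7 CPM, and at 1.07 CPM in the first 10-week library, where they summed to 12.9 CPM. In the first 12-week library Cox8b was at 0.470 CPM and the markers at 15.9 CPM, and in the other 9 kidney libraries Cox8b was at most 0.191 CPM and the markers at most 7.52 CPM. Over the 12 kidney libraries Cox8b and the summed brown fat markers had a Pearson correlation of 0.947 (0.909 without the 2 highest libraries). With the summed skeletal muscle markers it was 0.640 (0.495). For Cox6a2 and Cox7a1 the correlations with the brown fat markers were 0.449 and -0.245. The part of brown fat in the Cox8b level was not tested. Atp5if1, the inhibitor of ATP synthase, was higher in heart than in liver by 2.94 ± 0.12 (log2) and in kidney than in liver by 2.77 ± 0.12, with 0.17 ± 0.10 between heart and kidney. Atp5mk was higher in heart by 1.72 ± 0.06 against kidney and 1.65 ± 0.06 against liver, Atp5mj by 1.21 ± 0.11 against kidney (0.77 ± 0.11 against liver, under the minimum of 1), and Cox6b2 was higher than in liver by 3.76 ± 0.24 in heart and 4.37 ± 0.23 in kidney. Atp5mj turned on the counting: its means were 9.08, 3.89 and 5.29 CPM in heart, kidney and liver unstranded, and 260 ± 40.8, 91.5 ± 9.65 and 91.5 ± 8.68 CPM with the strand columns summed (SD, n = 12). Cox8c was listed at 0 in every library.

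Some genes that assemble these complexes were higher in heart. Calls of assembly genes are given by the unstranded count alone, and their strand-summed values are not given here. In the complex IV list Sco2 and Pet117 stood at 0 CPM in every organ. Cox20 and Slirp had means of at most 0.03 CPM, too low to be tested. Against kidney, 7 of 9 complex III assembly genes, 6 of 23 tested for complex IV and 3 of 5 for complex V passed, all higher in heart, where 21.9% of all genes were, so that the share for complex IV was near that of all genes. The complex III factors were Lyrm7 (2.53), Uqcc2 (2.24), Uqcc1 (1.49), Ttc19 (1.25), Uqcc3 (1.11), Uqcc4 (1.06) and Uqcc6 (1.03), those of complex IV Cox10 (2.18), a heme synthesis enzyme, Cmc2 (1.99), the copper chaperone Cox17 (1.75), Higd1a (1.68), Cox14 (1.50) and Taco1 (1.18), and those of complex V Atpaf1 (1.66), Fmc1 (1.41) and Tmem70 (1.12), all as log2 differences. Against liver 4 of 9 complex III factors (Lyrm7, Uqcc1, Uqcc2 and Ttc19) and 2 of 5 complex V factors (Atpaf1 and Fmc1) were higher, where 28.7% of all genes were. In complex IV 5 of 23 were higher (Cox10, Cox17, Cox14, Cmc2 and Taco1), a share below that of all genes. Coa6 was lower by a log2 difference of -1.25 ± 0.10. Between kidney and liver Cox16 alone passed among these assembly lists, at -1.15 ± 0.26. Its means were 0.265 ± 0.107 CPM in kidney and 0.600 ± 0.178 CPM in liver (SD, n = 12), so this difference rests on few pairs. Among 11 regulators, the coactivator Ppargc1b was higher than in kidney by 1.15 ± 0.16, Ppargc1a was higher than in liver by 3.03 ± 0.12 in heart and by 2.22 ± 0.11 in kidney, and the nuclear receptor Esrra was higher in heart than in liver by 1.80 ± 0.09.

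RefSeq promoter entries (GRCm38.p6) were found for 31 of the 40 genes, and the 250 bases before the start were searched on both strands. The NRF1 motif, whose letters are the 10 capitals in the first 3 sequences, was present in 3 of 31 (9.68%) against 0.782% of all 32851 promoters, the ETS motif CCGGAAG in 8 (25.8%) against 6.91%, the YY1 motif AAGATGGCG in 1 (3.23%) against 0.606%, and TATAAA in 1 (3.23%) against 12.4%. The MEF2 motif, searched by name, was in 0 of 31 against 2.92%. A member counted if any of its entries held the motif (34 entries for the 31 genes), whereas the share over all promoters is per entry. Shown are the 3 promoters with the NRF1 motif, the one with YY1, and for contrast those of the heart isoforms Cox7a1 and Cox8b, in which none of the 5 motifs was found. Capitals mark the motifs.
Cox6a1, chr5:115348959-115349208, minus strand: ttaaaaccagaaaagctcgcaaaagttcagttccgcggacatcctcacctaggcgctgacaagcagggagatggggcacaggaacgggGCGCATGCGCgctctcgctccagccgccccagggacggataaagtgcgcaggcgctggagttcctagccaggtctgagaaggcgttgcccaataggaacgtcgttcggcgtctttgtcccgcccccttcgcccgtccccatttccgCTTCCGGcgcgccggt
Atp5mc2, chr15:102671048-102671297, minus strand: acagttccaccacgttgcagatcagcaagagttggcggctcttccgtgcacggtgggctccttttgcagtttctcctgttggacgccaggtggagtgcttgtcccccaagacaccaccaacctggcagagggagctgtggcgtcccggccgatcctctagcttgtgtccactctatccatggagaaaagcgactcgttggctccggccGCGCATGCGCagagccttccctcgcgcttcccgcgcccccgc
Atp5me, chr5:108434400-108434649, minus strand: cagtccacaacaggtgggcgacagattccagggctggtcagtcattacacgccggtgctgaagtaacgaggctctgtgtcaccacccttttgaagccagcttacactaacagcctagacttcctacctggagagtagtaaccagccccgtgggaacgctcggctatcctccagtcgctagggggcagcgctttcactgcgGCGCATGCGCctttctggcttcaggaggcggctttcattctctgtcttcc
Atp5pf, chr16:84834977-84835226, minus strand: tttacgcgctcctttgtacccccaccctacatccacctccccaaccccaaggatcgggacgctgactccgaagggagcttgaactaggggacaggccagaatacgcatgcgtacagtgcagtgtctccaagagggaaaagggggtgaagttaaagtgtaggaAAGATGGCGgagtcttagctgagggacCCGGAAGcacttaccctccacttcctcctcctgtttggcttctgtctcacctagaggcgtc
Cox7a1, chr7:30183921-30184170, plus strand: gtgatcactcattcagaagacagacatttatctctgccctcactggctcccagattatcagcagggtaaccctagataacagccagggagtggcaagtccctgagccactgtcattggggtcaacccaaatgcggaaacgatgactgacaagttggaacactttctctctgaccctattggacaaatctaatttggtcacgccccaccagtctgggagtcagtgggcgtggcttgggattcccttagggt
Cox8b, chr7:140900447-140900696, minus strand: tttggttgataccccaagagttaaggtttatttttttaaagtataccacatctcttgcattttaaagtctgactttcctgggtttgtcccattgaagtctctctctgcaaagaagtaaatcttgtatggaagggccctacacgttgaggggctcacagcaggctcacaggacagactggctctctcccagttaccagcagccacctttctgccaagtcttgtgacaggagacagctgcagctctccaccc

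In heart, most members were lower at week 12 than at week 8, but few passed the test. Of 40 members 30 were lower at 12 weeks and 10 higher, with a median log2 difference of -0.16 beside 0.00 over all genes, and 3 passed an adjusted p under 0.05 (edgeR), 1 higher and 2 lower, where 4.56% of 15137 genes did. In complex IV 13 of 15 were lower (median -0.20), in complex III 6 of 9 (-0.25) and in complex V 11 of 15 (-0.09). An unadjusted p under 0.05 was reached by 13 members. The share of all genes at that unadjusted threshold is not given here or below, so such counts stand without a background.

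Cox4i1 was at 96.9, 75.4, 66.5 and 74.2 CPM at 8 weeks, at 67.1, 61.9, 44.7 and 60.1 CPM at 10 weeks and at 59.2, 45.8, 47.7 and 51.6 CPM at 12 weeks. Every 12-week library was below every 8-week library, and the fitted log2 difference was -0.62 ± 0.13 (adjusted p = 0.0153, edgeR). These values rest on fewer than 5% of its pairs. With the strand columns summed the difference was -0.29 ± 0.10 (adjusted p = 0.11) and the call was lost.

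Uqcrb, a ubiquinone-binding subunit of complex III, was at 333, 341, 316 and 361 CPM at 8 weeks and at 249, 257, 282 and 270 CPM at 12 weeks, again without overlap. It fell by 0.36 ± 0.08 on the log2 scale (adjusted p = 0.0185, edgeR), and by 0.24 ± 0.08 with the strand columns summed (adjusted p = 0.093). Uqcrc2, a core subunit of complex III, rose: it was at 744, 770, 730 and 722 CPM at 8 weeks, at 774, 774, 757 and 848 CPM at 10 weeks, and at 1027, 908, 986 and 824 CPM at 12 weeks. The rise of 0.33 ± 0.08 (adjusted p = 0.0298) was kept on the other scale at 0.32 ± 0.08 (adjusted p = 0.0387, edgeR). With the strand columns summed, Uqcrh at 0.39 ± 0.10 and Uqcr11 at -0.36 ± 0.10 passed as well, where 4.14% of 19019 genes passed.

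A single library weighed on this comparison. In the fourth 12-week heart library the members' median stood 0.13 above the 8-week mean on the log2 scale, with 27 of 40 above it, while in the other three 12-week libraries the medians were -0.06, -0.29 and -0.26. Without it 17 members passed, 16 of them lower. Without the fourth 8-week library, or without the first, the second or the third 12-week library, 1 member passed, and without the first 8-week library 6 did. The share of all genes that passed in these refits is not given here, so these counts stand without a background. The 6 heart muscle markers summed to 68941 CPM in the fourth 12-week library and to 51587 to 59558 CPM in the other 11 heart libraries. Fibroblast markers in heart summed to 764 to 809 CPM at 8 weeks, 888 to 1144 CPM at 10 weeks and 824 to 965 CPM at 12 weeks, lowest at that age in the same library. The part of these markers in the result was not tested.

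**Figure D4:**
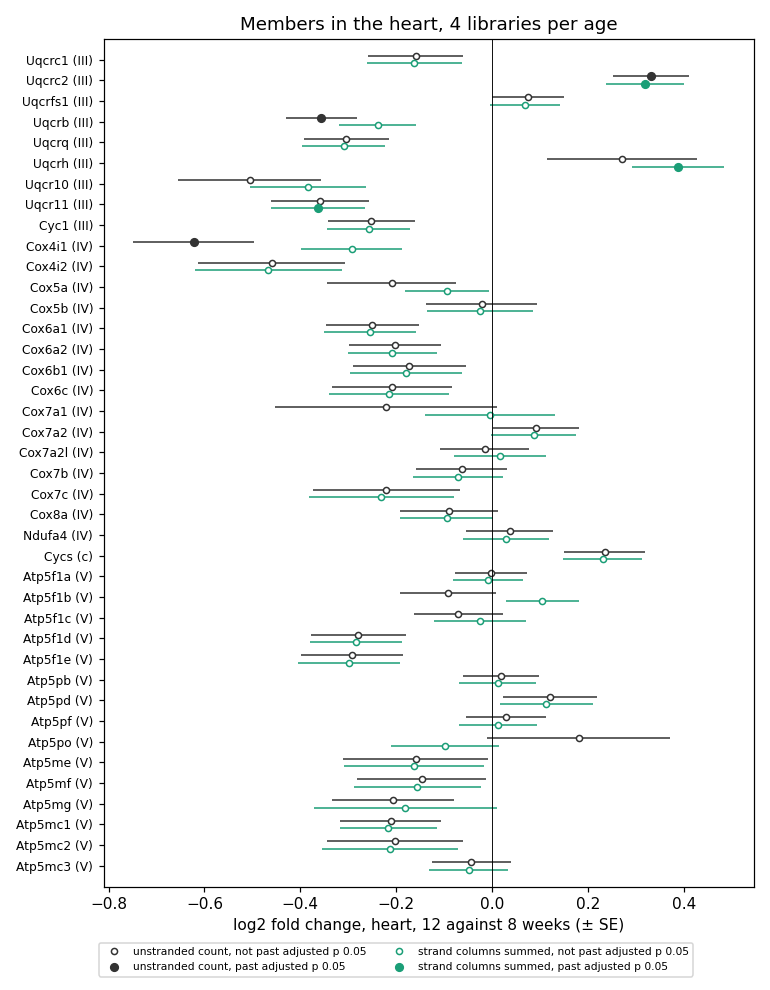
Points give the log2 fold change of each member in heart at 12 against 8 weeks (horizontal axis) with bars of 1 SE, in black for the unstranded count and green for the strand columns summed, and filled points passed an adjusted p under 0.05 (edgeR, 4 libraries per age). Most points lie left of 0, and Cox4i1 moves from -0.62 to -0.29 between the counts.

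Other comparisons of ages in heart gave 0 calls of members in edgeR with the filter on low counts, and without it 2 at 10 against 8 weeks and 4 at 12 against 10 weeks. At 10 against 8 weeks 0 members passed in edgeR, DESeq2 and limma-voom, where 1.06% of genes passed in edgeR, and 1 had an unadjusted p under 0.05. At 12 against 10 weeks 0 passed in edgeR, where 0.0396% of genes passed, while 9 members had an unadjusted p under 0.05 and 32 of 40 were lower. There limma-voom called 0 and DESeq2 2, and their shares over all genes are not given here. Of the assembly genes Uqcc1 rose by 0.30 ± 0.08, Sco1, a copper chaperone of complex IV, by 0.34 ± 0.07 and Coa5 by 0.29 ± 0.07 at 12 against 8 weeks, Coa5 also rose by 0.34 ± 0.07 at 10 against 8 weeks, and 0 of 11 regulators passed in edgeR, with 5 at an unadjusted p under 0.05.

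In kidney several small subunits were higher at 10 weeks than before or after. At 10 against 8 weeks 5 of 39 members tested rose and 0 fell, where 0.929% of 17649 genes passed and 0.646% as higher, and at 12 against 10 weeks 6 fell and 0 rose, where 0.482% passed and 0.346% as lower. Both comparisons share the 10-week libraries. At 12 against 8 weeks 0 members passed in edgeR, DESeq2 and limma-voom, where 0.0567% of genes did in edgeR, and 3 had an unadjusted p under 0.05.

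Atp5f1e, the epsilon subunit in the central stalk of ATP synthase, was at 82.6, 86.2, 85.6 and 87.2 CPM at 8 weeks, at 106, 105, 110 and 97.5 CPM at 10 weeks and at 81.4, 87.4, 81.8 and 91.9 CPM at 12 weeks. All 10-week libraries were above all others, and it rose by 0.32 ± 0.05 (adjusted p = 0.0151) and then fell by 0.31 ± 0.05 (adjusted p = 0.0198, edgeR). Atp5me, subunit e of the membrane part, was at 23.1, 32.8, 36.1 and 32.0 CPM, then at 57.4, 52.5, 55.4 and 43.8 CPM, then at 27.2, 39.9, 33.2 and 44.4 CPM. Its rise was 0.77 ± 0.15 (adjusted p = 0.0299, edgeR).

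Atp5po, which joins the head of the synthase to its peripheral stalk, was at 4.43, 5.01, 6.66 and 5.41 CPM at 8 weeks, at 11.7, 9.19, 10.9 and 9.72 CPM at 10 weeks and at 4.41, 6.08, 5.14 and 7.25 CPM at 12 weeks. It rose by 0.97 ± 0.15 and fell by 0.88 ± 0.15 without strand, and with the strand columns summed it rose by 0.71 ± 0.14 while the fall no longer passed. A second gene identifier of the same symbol shares 9.26% of its exonic bases on the same strand, and pairs there are in no column. In heart the gene opposite gained a mean of 4790 pairs by strand, while Atp5po held 1367 with the strand columns summed. What share of the Atp5po pairs either scale holds is therefore not known.

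Cox7a2 was at 144, 152, 164 and 158 CPM, then at 175, 188, 191 and 182 CPM, then at 152, 159, 153 and 158 CPM, and rose by 0.27 ± 0.05 and fell by 0.26 ± 0.05. Cox7c, another small complex IV subunit, was at 99.4, 109, 110 and 104 CPM, then at 124, 128, 123 and 128 CPM, then at 92.9, 105, 103 and 112.6 CPM. In both genes the 10-week libraries lay above all others. Cox7c rose by 0.28 ± 0.06 and fell by 0.30 ± 0.06.

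Uqcrb was at 63.9, 58.1, 64.3 and 60.6 CPM at 8 weeks, at 83.2, 74.7, 73.6 and 71.7 CPM at 10 weeks and at 52.1, 58.1, 57.3 and 66.4 CPM at 12 weeks, and fell by 0.39 ± 0.07 after 10 weeks (adjusted p = 0.0379, edgeR), which was lost with the strand columns summed (adjusted p = 0.0751). Uqcrq was at 115, 111, 107 and 110 CPM, then at 118, 127, 130 and 121 CPM, then at 107, 108, 102 and 108 CPM, and fell by 0.24 ± 0.05. With the strand columns summed 6 members rose, where 1.2% of 21490 genes passed, and 5 fell, where 0.828% did. Uqcr10 then rose by 0.25 ± 0.05 and fell by 0.24 ± 0.05.

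**Figure D5:**
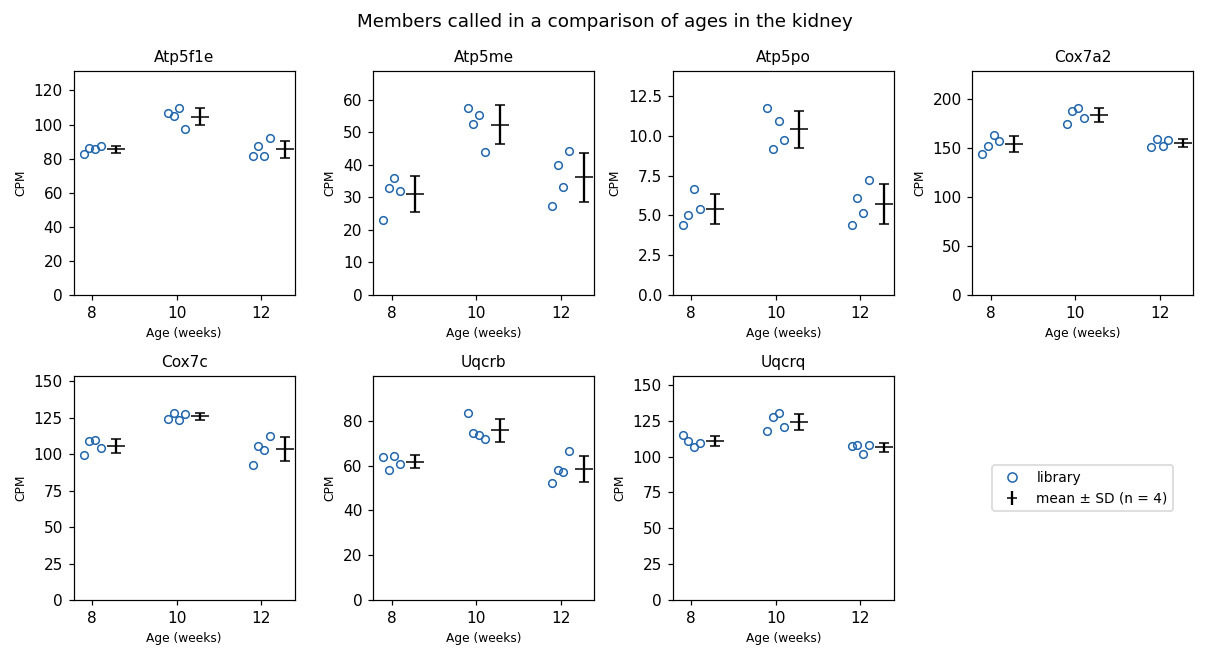
Open circles are libraries and bars the mean ± SD (n = 4) of CPM (vertical axes from 0, unstranded count) at 8, 10 and 12 weeks in kidney for the 7 members called there. Atp5f1e lies between 97.5 and 110 CPM at 10 weeks and at most 91.9 CPM at the other ages.

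These calls depended on single libraries. At 10 against 8 weeks 0 members passed without the third 10-week library, 2 without the second or the third 8-week library, and 3 without the fourth 8-week or the first 10-week library. At 12 against 10 weeks 0 passed without the first or the third 10-week library or the second or the third 12-week library, 2 without the second 8-week or the second 10-week library, and 3 without the third 8-week library. The shares of all genes that passed in these refits are not given here.

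Other short transcripts had medians of the same sign. Among members with a canonical transcript under 700 bases the median log2 change at 10 against 8 weeks in kidney was 0.17 (13 members), and among 141 other protein-coding genes of that length it was 0.19, with 80.1% higher, against -0.01 for 8322 genes of 3000 bases or more. At 12 against 10 weeks the medians were -0.20 for the members and -0.16 for the others under 700 bases. In heart at 12 against 8 weeks they were -0.21 and -0.13, with 0.03 for the long genes. The part of transcript length in the changes was not tested. Uqcc2, an assembly factor of complex III, rose by 0.76 ± 0.12 at 10 weeks in kidney and fell by 0.80 ± 0.12 after.

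In liver most members were higher at week 12 than at week 8, with no call. At 12 against 8 weeks 32 of 37 members tested were higher (median 0.12, beside -0.00 over all genes), and 0 passed in edgeR, DESeq2 and limma-voom, where 0.239% of 14672 genes passed in edgeR and 4 members had an unadjusted p under 0.05. At 10 against 8 weeks 0 passed in the same tools, where 0.0204% of genes did in edgeR, and 4 had an unadjusted p under 0.05. At 12 against 10 weeks 0 passed in edgeR, where 0.0545% of genes did, and 13 members had an unadjusted p under 0.05. There limma-voom called 0 and DESeq2 5, and their shares over all genes are not given here. Cox19, a copper-handling assembly factor of complex IV, rose by 0.62 ± 0.11 at 12 against 8 weeks.

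Other gene groups in liver also had medians away from 0 at 12 against 8 weeks. The 5 endothelium markers had a median of -0.51, with 4 at an unadjusted p under 0.05, and the 6 fibroblast markers one of -0.49, with 3, and 0 of either list passed in edgeR. Endothelium markers summed to 87.8 to 144.6 CPM at 8 weeks and 58.3 to 92.4 CPM at 12 weeks, and fibroblast markers to 215.8 to 336 CPM and 151.6 to 242 CPM, with none of them at 0. Among other protein-coding genes under 700 bases the median was 0.09, and among those of 700 to 1500 bases 0.10 with 68.8% higher, beside -0.04 for 7394 genes of 3000 bases or more. The part of these cells and of transcript length in the members' values was not tested.

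The change from week 8 to week 12 differed between heart and liver for 5 members. All 5 were lower in heart relative to liver, where 4.16% of 19716 genes passed and 1.81% as lower: Uqcrq by -0.50 ± 0.13 (adjusted p = 0.027), Cox6a1 by -0.50 ± 0.13 (adjusted p = 0.0251), Atp5f1e by -0.47 ± 0.14 (adjusted p = 0.0499), Uqcrb by -0.44 ± 0.12 (adjusted p = 0.0406) and Atp5f1d, the delta subunit of ATP synthase, by -0.44 ± 0.12 (adjusted p = 0.0408), all in edgeR's interaction test. Over all 40 members the median was -0.22 beside 0.01 over all genes. Other protein-coding genes with a canonical transcript under 700 bases had median changes at 12 against 8 weeks of -0.13 in heart and 0.09 in liver. For those of 700 to 1500 bases the medians were -0.07 and 0.10. The part of transcript length in this difference was not tested. With the strand columns summed 7 passed, where 4.56% of genes did. Uqcrb was no longer among them (-0.38 ± 0.12, adjusted p = 0.0543), while Uqcr10 (-0.52 ± 0.14), Cox4i1 (-0.51 ± 0.15) and Cyc1 (-0.42 ± 0.12) passed on that scale alone. In the unstranded test the endothelium markers Kdr and Pecam1 also differed between heart and liver, by 1.24 ± 0.26 and 0.60 ± 0.15, and their part in the result was not tested.

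Cox6a1 in heart was at 79.8, 78.3, 75.3 and 75.3 CPM at 8 weeks and at 55.7, 57.8, 68.5 and 78.6 CPM at 12 weeks, and in liver at 285, 284, 296 and 322 CPM and at 372, 356, 392 and 294 CPM. The fourth 12-week library stood nearest to the 8-week values in both organs. Uqcrq in heart was at 540, 576, 523 and 589 CPM and then at 472, 402, 430 and 506 CPM, and in liver at 255, 285, 278 and 299 CPM and then at 325, 335, 363 and 261 CPM. Atp5f1d in heart was at 666, 687, 651 and 657 CPM and then at 542, 481, 499 and 680 CPM, and in liver at 270, 298, 304 and 325 CPM and then at 316, 334, 370 and 320 CPM. Atp5f1e in heart was at 389, 354, 316 and 312 CPM and then at 327, 243, 256 and 298 CPM, and in liver at 115, 116, 112.8 and 137 CPM and then at 134, 137, 154 and 119 CPM. Uqcrb in liver was at 90.5, 105, 99.4 and 109 CPM and then at 92.1, 111, 118 and 107 CPM, beside its heart values above. In each gene the heart mean was lower and the liver mean higher at 12 weeks. Of the assembly genes Higd2a differed by -0.48 ± 0.13, Taco1 by 0.62 ± 0.16 and Lrpprc by 0.44 ± 0.12.

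Without the fourth 12-week heart library 13 members passed this test, and without the second 12-week heart library or the third 12-week liver library 0 did. Without the second or the fourth 8-week heart library or the first or second 8-week liver library 1 did, and without the first 8-week, the first or the third 12-week heart library, the third 8-week or the second 12-week liver library 2 did. The shares of all genes that passed in these refits are not given here. Between heart and kidney 0 members passed in edgeR, where 0.112% of genes did, with 7 at an unadjusted p under 0.05. There limma-voom called 0 and DESeq2 1, and their shares over all genes are not given here. Between kidney and liver 0 passed in edgeR, DESeq2 and limma-voom, where 0.304% of genes did in edgeR, with 3 at an unadjusted p under 0.05.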

How the data were processed

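The deposited files hold raw read-pair counts per gene, 1 file per library, with 3 count columns: without strand, and for each strand. The authors made them with STAR (version 2.7.11b, per the submitters' processing notes, which also name FastQC 0.11.9 and cutadapt 4.2) on GRCm39 with an Ensembl annotation. Rows for unmapped, multimapping, ambiguous and unassigned pairs were left out. Groups were taken from the sample labels.

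The unstranded counts were tested with edgeR 4.0.16 (R 4.3.3, quasi-likelihood test, TMM, Benjamini-Hochberg over all genes tested). Ages were fitted within each tissue, tissues and the difference in change over all 36 libraries. Genes needed, in at least 1 group, a mean count of 10 and a count above 0 in 2 samples. Calls are adjusted p under 0.05, with a log2 fold change beyond 1 between tissues. Errors of fold changes are standard errors.

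Alternatives were DESeq2 1.42.0, limma-voom (limma 3.58.1), other normalizations, no filter, 1 strand column, a replicate block and leaving out each library. Summing both strand columns was added after seeing the data. Overlaps and lengths came from a later annotation release than the authors', which matched 99.91% of gene identifiers, and copies from blastn 2.17.0. The fit was tested on simulated data.

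Values per sample are given for members called in a comparison of ages or of change, ranges for paired isoforms, and the 3 highest and 3 lowest members between tissues. Other lists (isoforms, assembly factors, regulators, markers) name genes that passed. The members and lists were chosen with earlier results of these data known.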

Additional observations from a re-analysis of the deposited data

Results flagged for a closer look

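In 8 of 140 groups of 4 libraries tested, 1 library stood far from the other 3 by Dixon's criterion, where chance gives about 7. In kidney these were Uqcrq at 101.7 CPM in the third 12-week library (others 107.4 to 108.3) and Atp5mc2 at 50.91 CPM in the third 8-week library (others 55.72 to 56.1). In liver they were Cox4i1 at 14.54 CPM in the fourth 12-week library (others 17.87 to 18.03), Atp5po at 3.904 CPM in the first 12-week library (others 6.052 to 6.31), and Atp5f1e at 137 CPM and Atp5mc1 at 222.7 CPM, both in the fourth 8-week library (others 112.8 to 116 and 192.4 to 197.4). In heart they were Cox7a1 at 11.31 CPM in the fourth 8-week library (others 8.963 to 9.09) and Atp5me at 186.5 CPM in the fourth 12-week library (others 135.9 to 138.8).

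The change from 8 to 12 weeks differed between heart and liver by edgeR's interaction test for Cox6a1 (-0.496 on the log2 scale, adjusted p = 0.0251), Uqcrq (-0.499, adjusted p = 0.027), Uqcrb (-0.438, adjusted p = 0.0406), Atp5f1d (-0.437, adjusted p = 0.0408) and Atp5f1e (-0.466, adjusted p = 0.0499). These are the differences given with their values per library above, and the cause was not tested.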

How the results depend on the processing

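No result changed direction past its threshold under any alternative run. With DESeq2 the members called were 7 in heart at 12 against 8 weeks, 2 in heart at 12 against 10 weeks, 10 in kidney at 10 against 8 weeks, 13 in kidney at 12 against 10 weeks, 5 in liver at 12 against 10 weeks and 1 for the change between heart and kidney. Without a filter on low counts they were 8, 2 and 4 in heart at 12 against 8, 10 against 8 and 12 against 10 weeks, 1 in liver at 12 against 10 weeks, 1 for the change between heart and kidney and 3 for that between heart and liver. RLE factors gave 3 for the change between heart and liver, and total counts gave 1 there, 29 in heart against kidney and 9 in kidney against liver. In the last 2 comparisons 11161 and 11465 of 19716 genes passed with total counts. Leaving out 1 library gave 1 to 17 members in heart at 12 against 8 weeks, 0 to 6 in kidney at 10 against 8 weeks, 0 to 7 in kidney at 12 against 10 weeks, 0 to 1 in liver at 12 against 10 weeks (1 without the fourth 8-week library), 0 to 13 for the change between heart and liver, 0 to 1 between heart and kidney (1 without the fourth 12-week heart library) and 0 to 1 between kidney and liver (1 without the fourth 12-week liver library). Apart from those named for total counts, the shares of all genes that passed under these alternatives are not given here. The causes were not tested. Fold changes of single members kept their side of the threshold in 336 combinations of member and alternative and lost it in 150.

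Same-numbered kidney and liver libraries of an age correlated best with each other in 12 of 12 cases (0.0421 to 0.287), heart and kidney in 9 and heart and liver in 6 of 12, a hint from the data that numbers mark animals. Not every correlation was over 0.1, which does not show independence, and the labels do not say that numbers mark animals. The libraries were treated as independent, so the main tests over 36 libraries leave out any such pairing. In the comparisons of ages a replicate block tied equal numbers across ages, which are different mice, so it does not check pairing by animal. With it 2 members passed in kidney at 12 against 10 weeks in place of 6, and 4 in kidney at 10 against 8 weeks. Over all 36 libraries the block was age and number together. With that block 4 passed for the change between heart and liver, and between organs 39, 35 and 5 passed as before.

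On simulated data the test recovered 45% of genes changed by 0.5 (log2) in heart, 43% in kidney and 13% in liver, so changes of that size can be missed, most of all in liver. Of the calls made there 8.21%, 4.92% and 6.41% were false, against a nominal 5%.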
